A study of Argyrosomus regius with 12 samples.

Results

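Of 42480 genes assembled from the spleen of young meagre (Argyrosomus regius), a bony fish of coastal seas, 150 were chosen by their measured levels, selected on a level that was lower in control fish at 24 h than in control fish at 4 h, and that stood near its 4 h value in fish given lipopolysaccharide. Counts were summed over the isoforms of each gene of the Trinity assembly and divided by the library total to give CPM, the counts of a gene scaled to a common library size. Genes were kept at a mean of at least 5 CPM in control spleens at 4 h, which left 15925. Of these, 7419 also had a mean between 0.67 and 1.5 times that level in lipopolysaccharide-treated fish at 24 h, and likewise in replicates 1 and 3 of the treated fish at 4 h. These 7419 are called the passing genes. Each was scored by the gap, on the log2 scale of CPM + 0.5, between its lowest pool among the controls at 4 h and the treated fish at 24 h, and its highest pool among the controls at 24 h. The 150 highest scores make up the set.

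Phosphate buffered saline (PBS) or lipopolysaccharide (LPS) was injected intraperitoneally into fish of 22 g kept at 22 °C. The LPS came from Photobacterium damselae subsp. piscicida strain Lg41/01 and was given at 10 µg per g of fish. Spleens were sampled at 4 h and at 24 h, which gave the groups PBS 4 h, PBS 24 h, LPS 4 h and LPS 24 h. Each group holds 3 pools of 4 spleens, 12 fish in all, and a pool is the replicate. Uninjected fish are not among the samples, so every group carries the effect of handling and injection, and a change with time compares different fish.

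The spleen filters blood in bony fish, which have no lymph nodes, and is among their main sites of immune response. LPS is the outer-membrane glycolipid of Gram-negative bacteria. In mammals it is sensed through Toll-like receptor 4 and sets off an acute inflammatory programme of cytokines and acute-phase proteins. A saline-injected control carries the effects of handling, injection and the hour of sampling without LPS. Without uninjected fish, and with different fish at each time, these cannot be told apart here. The 150 genes were picked because their levels differed with time in that control arm. The files pair none of the identifiers with a gene name, so no member can be given a function, and no list of spleen or blood cell markers could be matched to check the tissue.

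Library totals ran from 29614365 to 56556752 counts, and each library detected 81.4% to 86.0% of the transcripts. One library, LPS 4 h replicate 2, stood apart from its group. Across genes it correlated at 0.860 on average with the rest of its group, whose replicates 1 and 3 correlated at 0.954. Its averages were 0.947 against PBS 4 h and 0.949 against LPS 24 h. The choice of members made no use of this pool, and of no other pool is that true. The most abundant gene took between 1.32% and 9.48% of a library, with 9.48% in PBS 24 h replicate 3 and 1.46% in LPS 24 h replicate 3. A gene of that size lowers the CPM of all others by its own share, and the scaling by trimmed mean of M-values (TMM) that is set beside CPM in what follows is less exposed to it.

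The 150 genes were lowest in the controls at 24 h, and the other 9 pools were spread over a range of their own. On the log2 scale of CPM + 0.5, relative to the PBS 4 h mean of each gene, the median member stood at -0.56, -0.46 and -0.62 in PBS 24 h replicates 1, 2 and 3. The LPS 24 h replicates 1, 2 and 3 had medians of 0.01, 0.26 and 0.54. In LPS 4 h replicates 1, 2 and 3 it was 0.01, 0.15 and 0.04. The PBS 4 h pools themselves ran from -0.11 to 0.11. All 3 PBS 24 h pools were thus below every other pool, and LPS 24 h replicate 3 was the highest of the 12. The choice fixes the low place of PBS 24 h against PBS 4 h and LPS 24 h, so this is a description of the set. In bulk spleen, fewer cells of a type and less RNA per cell cannot be told apart.

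**Figure D1:**
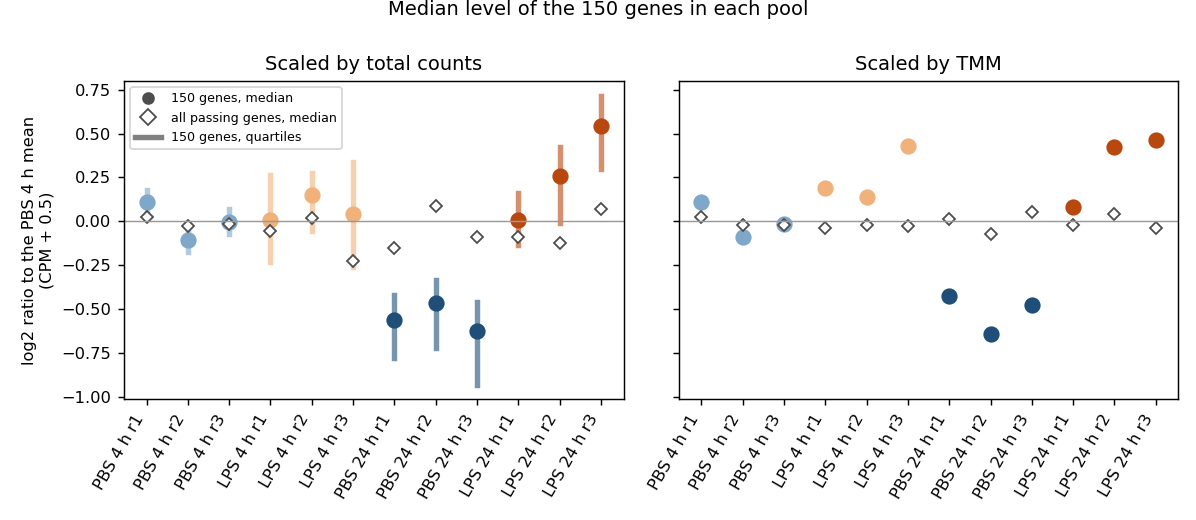
Median log2 ratio of the 150 genes to their PBS 4 h mean (filled circles, with quartiles as bars in the left panel) and of all passing genes (open diamonds) in each of the 12 pools, scaled by total counts (left) or by TMM (right). The 3 PBS 24 h pools lie between -0.62 and -0.46 on the left and are the lowest pools in both panels, while the LPS 4 h pools lie higher on the right.

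The members together made up 0.912%, 0.765% and 0.856% of the counts in PBS 4 h replicates 1, 2 and 3. In PBS 24 h they made up 0.522%, 0.536% and 0.466%. For LPS 24 h the shares were 0.833%, 0.914% and 1.10%, and in LPS 4 h 0.826%, 0.868% and 0.901%. The summed share was thus lowest in the PBS 24 h pools. The choice fixes this against PBS 4 h and LPS 24 h, so it is a description. The most abundant member held 9.22% of the summed CPM of the set and the 10 most abundant 36.2%, so the shares were not set by a single gene.

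Scaling moved pools of both LPS and control fish. With TMM the median member stood at -0.43, -0.64 and -0.48 in PBS 24 h replicates 1, 2 and 3, and at 0.08, 0.42 and 0.46 in the LPS 24 h pools. The LPS 4 h pools stood at 0.19, 0.14 and 0.43. PBS 24 h replicate 2 went from the highest to the lowest of its group. TMM raised replicate 3 of LPS 4 h most, whose TMM factor of 0.799 was the lowest of all libraries. With that scaling 146 of the 150 members had every PBS 24 h pool below every PBS 4 h and LPS 24 h pool. Among the 8093 genes that met the level of 5 CPM and both limits under TMM, 314 did. The choice ranked the members by this gap in the same pools, so the count is a description. Only 90 members still met the level of 5 CPM and both limits of 0.67 and 1.5. Of the 150, 44 exceeded 1.5 times the PBS 4 h level in LPS 4 h and 16 did so in LPS 24 h. Under TMM the median member in the treated pools was thus level with, or above, the 4 h controls. This did not hold for every member.

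Across members, the mean in PBS 4 h was from 1.16 to 68.2 times the mean in PBS 24 h, with a median of 1.44 and quartiles of 1.33 and 1.71. The control mean at 24 h was at least 1.5-fold lower for 63 members, at least 2-fold lower for 21 and at least 4-fold lower for 2. The mean in LPS 24 h was from 1.32 to 102.1 times that in PBS 24 h, with a median of 1.82. The gene of rank 26 gave the top of both ranges, and the next highest values were 5.22 and 5.68. The set is therefore mostly made of changes below 2-fold.

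The scores that define the set fell off quickly from a few clear genes to a long shallow part. They were 1.32 at rank 1, 1.13 at rank 2, 0.71 at rank 10, 0.31 at rank 50 and 0.18 at rank 100. At ranks 149 and 150 they were 0.1307 and 0.1304, and the first genes left out had 0.1303 and 0.1266. No gap separates the last members from the first genes outside, and a score of 0.13 means that the nearest pools of the groups stood only 1.09-fold apart.

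More passing genes were lower than higher in PBS 24 h. All PBS 24 h pools lay below all PBS 4 h and LPS 24 h pools in 378 of 7419 passing genes (5.1%), and above them in 145 (1.95%). The floor of 5 CPM was set in PBS 4 h, with none in PBS 24 h, and both limits are relative to PBS 4 h. This can favour genes that are lower in PBS 24 h, so the counts carry no test. The highest score in the opposite direction was 0.42, which 25 of the members exceeded. Over all 15925 genes at 5 CPM or more, 6.74% were lower in this sense. With TMM the numbers were 314 and 191. The lean depended on PBS 24 h replicate 1, without which 586 were lower and 825 higher. Without PBS 24 h replicate 2, 883 were lower and 273 higher, without PBS 24 h replicate 3 it was 475 and 347, and without PBS 4 h replicate 2 it was 766 and 314.

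**Figure D2:**
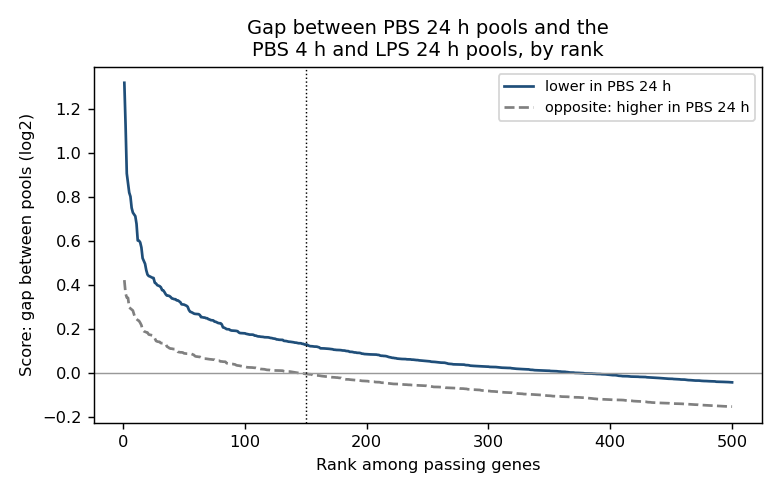
Score, the log2 gap between the PBS 24 h pools and the PBS 4 h and LPS 24 h pools, against rank among the passing genes, for genes lower in PBS 24 h (solid) and for the same gap in the opposite direction (dashed), with the highest of each shown. The solid line starts at 1.32 and stands at 0.13 at the dotted line, rank 150, where the dashed line stands at -0.00279.

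TRINITY_DN1208_c0_g1 had the highest score. It stood at 61.6, 138.0 and 107.6 CPM in PBS 4 h replicates 1, 2 and 3, and at 17.5, 24.4 and 15.8 CPM in PBS 24 h. Under LPS at 24 h it stood at 90.7, 81.2 and 162.6 CPM, and in LPS 4 h at 87.0, 89.5 and 51.1 CPM. The highest PBS 24 h pool was below the lowest pool of every other group, and the other groups overlapped each other. From 4 h to 24 h in PBS it fell by 2.40 ± 0.31 (standard error, SE) on the log2 scale (edgeR adjusted p = 0.0379). At 24 h it was higher in LPS than in PBS fish by 2.55 ± 0.31 (SE, edgeR adjusted p = 0.00389). The choice used both contrasts, here and for the members below, so these p-values describe the genes and support nothing further. The gene has 3 isoforms, of which one held at least 95.4% of its counts in every library. The call over time in PBS ended with limma-voom and without any 1 of 7 pools, namely PBS 4 h replicates 2 and 3, each PBS 24 h pool, and LPS 24 h replicates 1 and 2, at adjusted p from 0.0687 to 0.366.

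TRINITY_DN24568_c0_g1, with a single isoform, was the other gene whose nearest pools stood more than 2-fold apart. It was at 10.1, 8.34 and 12.9 CPM in PBS 4 h, and at 2.29, 3.19 and 2.73 CPM in PBS 24 h. The LPS 24 h values were 12.7, 7.57 and 9.95 CPM, and in LPS 4 h 10.8, 6.25 and 5.28 CPM. Again all PBS 24 h pools were the lowest, with 75 to 107 counts behind each, and LPS 4 h replicates 2 and 3 lay between them and the rest. LPS against PBS at 24 h gave a log2 difference of 1.90 ± 0.30 (SE, edgeR adjusted p = 0.00857), and the call ended without PBS 24 h replicate 2 (adjusted p = 0.0617). Time in PBS gave -1.90 ± 0.30 (SE) and was not called (edgeR adjusted p = 0.0911).

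The members with the largest fitted difference between LPS and PBS at 24 h, beyond those, were of contrasting kinds. TRINITY_DN30306_c0_g1, of rank 8, was at 10.2, 8.90 and 16.5 CPM in PBS 4 h and at 4.08, 4.86 and 5.17 CPM in PBS 24 h. It reached 16.7, 15.0 and 21.9 CPM in LPS 24 h and stood at 8.85, 10.8 and 8.49 CPM in LPS 4 h. Its LPS 24 h mean was 1.48 times its PBS 4 h mean, close to the upper limit of 1.5, and 2 of its 3 LPS 24 h pools were above every PBS 4 h pool. LPS against PBS at 24 h gave a log2 difference of 1.92 ± 0.25 (SE, edgeR adjusted p = 0.00518), and without PBS 24 h replicate 2 the adjusted p was 0.0538.

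TRINITY_DN504_c2_g1, of rank 26, differed strongly between pools of every group. It was at 0.507, 48.1 and 81.9 CPM in PBS 4 h replicates 1, 2 and 3, from 15, 1725 and 2706 counts. In PBS 24 h it was at 0.0609, 0.119 and 0.257 CPM, from 2, 4 and 10 counts. It was at 168.3, 17.5 and 10.5 CPM in LPS 24 h, and in LPS 4 h at 24.98, 4.54 and 79.2 CPM. PBS 4 h replicate 1 lay far below the other pools of its group and nearest to PBS 24 h. The log2 difference of LPS against PBS at 24 h was 8.77 ± 2.24 (SE) and was not called (edgeR adjusted p = 0.0691). Without PBS 4 h replicate 1 it was called (edgeR adjusted p = 0.0383), as it was by DESeq2. The means of this gene in PBS 4 h, LPS 4 h and LPS 24 h rest on 1 or 2 pools each.

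**Figure D3:**
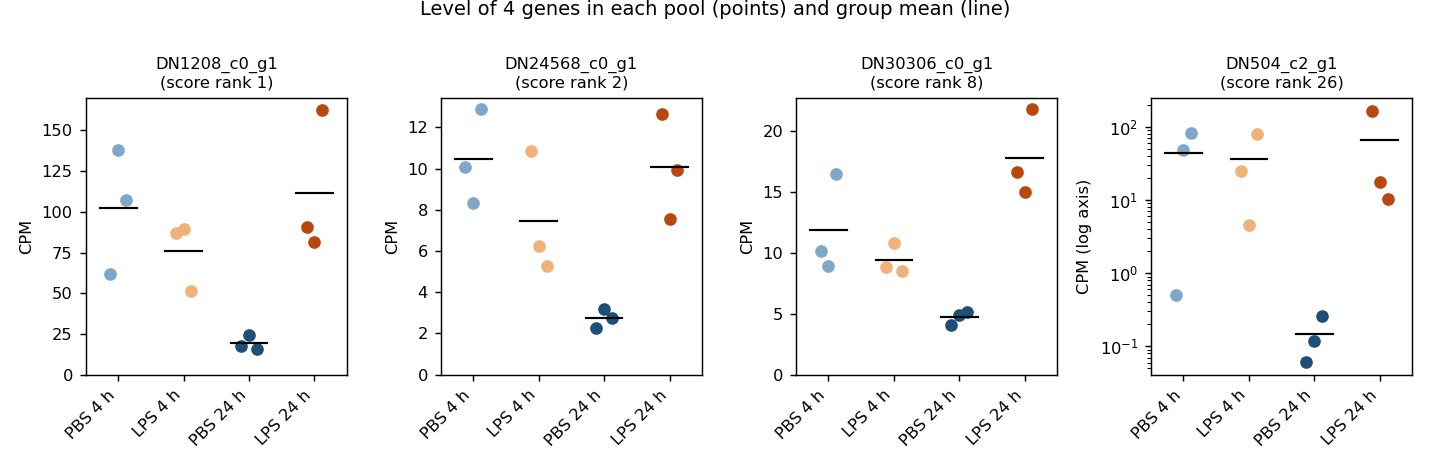
CPM of 4 members in each pool (points, replicates 1 to 3 from left to right in each group) with the group mean (line), on linear axes that start at 0 and, for the gene of rank 26, on a log axis. The PBS 24 h pools are the lowest 3 pools in all 4 panels, and the pools of the gene of rank 26 run from 0.0609 to 168.3 CPM.

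In other members with high scores PBS 24 h was again lowest, as the choice requires, while the order of the other groups varied. The gene of rank 3 was at 45.4, 29.1 and 30.8 CPM in PBS 4 h, at 14.3, 15.0 and 9.28 in PBS 24 h, and at 31.6, 28.6 and 53.8 in LPS 24 h. The gene of rank 4 was at 113.5, 159.6 and 175.7 CPM in PBS 4 h, at 36.6, 48.7 and 33.6 in PBS 24 h, and at 135.5, 89.1 and 168.6 in LPS 24 h. In LPS 4 h they stood at 34.1, 26.99 and 25.4 CPM and at 160.7, 141.6 and 216.5 CPM, within or near the range of the 4 h controls. Pools of PBS 24 h and LPS 24 h did not overlap in either gene. For the gene of rank 7 the spread was small, with 52.3, 45.5 and 55.1 CPM in PBS 4 h, 24.1, 26.8 and 18.9 in PBS 24 h, and 48.4, 59.0 and 49.1 in LPS 24 h.

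The gene of rank 12 was the most abundant member and the one with the lowest level in LPS 24 h relative to PBS 4 h. It was at 1036, 732.6 and 1113 CPM in PBS 4 h and at 396.1, 255.0 and 198.2 CPM in PBS 24 h. The LPS 24 h pools were at 648.9, 601.7 and 757.8 CPM, and those of LPS 4 h at 909.1, 905.4 and 1211 CPM. They thus lay above the 24 h controls and below all but 1 of the 4 h pools, with a mean of 0.697 times the PBS 4 h mean. LPS against PBS at 24 h gave a log2 difference of 1.24 ± 0.30 (SE, edgeR adjusted p = 0.0469).

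The 10 highest scores had PBS 4 h means from 2.17 to 5.22 times and LPS 24 h means from 2.22 to 5.68 times those of PBS 24 h. All 10 were called higher under LPS at 24 h by edgeR, where 2.98% of the 32542 genes tested were called higher. The score that ranks them uses this contrast, so the count is a description.

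Member levels in PBS 4 h ran from 5.11 to 960.8 CPM with a median of 27.3, and the size of the difference did not follow the level closely. The 50 least abundant members, from 5.11 to 18.2 CPM, had a median log2 ratio of PBS 24 h to PBS 4 h of -0.56. The 50 in the middle, up to 44.4 CPM, had -0.50, and the 50 most abundant, from 45.2 CPM, had -0.57. No member had 0 counts in any library. The lowest counts were the 2 in the gene of rank 26, and no other member fell under 34 counts.

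At 24 h under LPS, most members were above the 4 h control level on the mean. The LPS 24 h mean exceeded the PBS 4 h mean for 131 of 150 members, with a median ratio of 1.22 and quartiles of 1.08 and 1.39 inside the limits set by the choice. Every LPS 24 h pool was above every PBS 4 h pool for 44 members (29.3%), against 11.5% of the passing genes, and below them for 2. The score takes the lowest LPS 24 h pool, so it favours genes that are high there and these shares carry no test. The remaining 104 overlapped. LPS 24 h replicate 3 was the highest LPS 24 h pool for 119 members. In LPS 4 h replicates 1 and 3 the mean exceeded the PBS 4 h mean for 80 members, with a median ratio of 1.03.

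Fits across all genes put these differences beside the spread between pools. The choice used every one of these contrasts, so the counts describe the set and support nothing further. For LPS against PBS at 24 h, edgeR (Benjamini-Hochberg adjusted p below 0.05) called 89 of 150 members, all higher under LPS, where 2.98% of the 32542 genes tested were called higher. Of the 50 members with the highest scores 37 were called, of the next 50 it was 29, and of the last 50 it was 23. The median member log2 fold change was 0.90, against -0.08 over all genes tested. DESeq2 called 129 members, beside 7.64% of all genes, limma-voom 86, beside 2.95%, and edgeR with LPS 4 h replicate 2 left out called 113, beside 5.18%. The edgeR count was 1 without PBS 24 h replicate 2, beside 0.084% of all genes, and 8 without LPS 24 h replicate 3, beside 0.499%. It was 44 and 19 without PBS 24 h replicates 1 and 3, beside 1.5% and 0.855%, and 25 without LPS 24 h replicate 2, beside 0.919%. It was 53 without PBS 4 h replicate 3, beside 1.9%, and 36 with the replicate number as a block, beside 1.39%. The share over all genes was thus lower in each of these fits as well.

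From 4 h to 24 h in PBS, the contrast that gives the set its pattern, edgeR called 1 member, TRINITY_DN1208_c0_g1, where 0.0154% of all genes were called lower. At an unadjusted p under 0.05 it was 95 of 150 members, all lower at 24 h, beside 4.38% of all genes. DESeq2 called 27 members (0.993% of all genes lower) and limma-voom called none (0 members). With LPS 4 h replicate 2 left out, a pool of neither group in this contrast, edgeR called 9 members, beside 0.438% of all genes. The median member log2 fold change was -0.52, against 0.03 over all genes, and it lay below 0 in 150 of 150. The choice set every PBS 24 h pool below every PBS 4 h pool, which all but fixes this direction. By edgeR with all pools, then, the lower level in PBS fish at 24 h did not pass the test across all genes for nearly all members. For these it was a separation of pools only, while by DESeq2 27 members passed.

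Whether the change with time differed between LPS and PBS fish was tested as an interaction. By edgeR 0 of 150 members were called, where 0.0154% of all genes had a more positive call, and 81 had an unadjusted p under 0.05, beside 8.62% of all genes. DESeq2 called 23 members, beside 2.69% of all genes, and limma-voom 0, beside 0.0123%. Leaving out LPS 4 h replicate 2, edgeR called 28 members, beside 9.53% of all genes, and without PBS 4 h replicate 1 it called 1, beside 0.0179%. The median member difference was 0.68 on the log2 scale, against -0.05 over all genes. The choice used all of these pools but LPS 4 h replicate 2, so these values are a description.

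The 2 contrasts in which the members were chosen to be level were fitted too. Over the members, the log2 difference between LPS and PBS at 4 h was 0.26 at the median and above 0 for 118. None was called higher (0 of 150, edgeR), beside 0.00307% of all genes, and 31 had an unadjusted p under 0.05, beside 11.6%. From 4 h to 24 h in LPS fish the median was 0.08, and 0 of 150 were called in either direction, beside 7.79% of all genes, with 19 at an unadjusted p under 0.05, beside 29.1%. The members were held near their PBS 4 h level in these groups by the choice itself.

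LPS 4 h replicate 2 was the one pool that played no part in the choice. Its log2 ratio to the PBS 4 h mean had a median of 0.15 over the members, with quartiles of -0.06 and 0.28, beside a median of 0.02 over the passing genes. It was above every PBS 24 h pool for 147 of 150 members, against 28.5% of passing genes, and below all of them for 1, against 15.6%. Against PBS 4 h, it lay above every pool for 80 members, against 27.4% of passing genes. It lay within the PBS 4 h pools for 50, against 54.3%, and below them for 20, against 18.3%. With TMM it was above every PBS 4 h pool for 78 members, against 25.7% of the passing genes. The PBS 24 h pools were chosen to be low and the lowest PBS 4 h pool to be high, which bears on these counts, and 1 pool allows no test. The farthest below PBS 4 h in this pool were the gene of rank 26, at -3.13, and the gene of rank 22, at -1.56, which stood at 18.3 CPM there and at 50.4 to 61.4 CPM in PBS 4 h.

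To score a pool that had no part in the choice, 150 genes were chosen again without each of 9 pools in turn, and the pool left out was measured. For the PBS 24 h pools 1, 2 and 3 the medians against the PBS 4 h mean were -0.50, -0.35 and -0.56, a mean of -0.47 ± 0.11 (SD, n = 3). Over the passing genes the same pools stood at -0.15, 0.09 and -0.09. For the lists so chosen, the lower level in controls at 24 h was also seen in the pool left out. The PBS 4 h mean it is set against was used in the choice. These lists shared 99, 79 and 119 genes with the 150, so the medians are not those of the set itself. Replicates 1 and 2 lay closer to 0 than the PBS 24 h pools used beside them, at -0.72 to -0.59 and -0.71 to -0.67, while replicate 3 lay level with the lower of its own, at -0.56 and -0.48. The pool left out lay below every PBS 4 h and LPS 24 h pool for 119, 110 and 133 of the 150 genes, against 23.2%, 11.6% and 26.8% of passing genes. The lowest of those PBS 4 h and LPS 24 h pools was chosen to be high, which bears on these counts.

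For the LPS 24 h pools left out, the medians were -0.14, 0.19 and 0.59, a mean of 0.22 ± 0.36 (SD, n = 3), on both sides of the 4 h controls. A pool left out does not enter the limit on the LPS 24 h mean. Each was above every PBS 24 h pool for 123, 140 and 145 of 150 genes, against 19.6%, 29.7% and 40.8% of passing genes. The PBS 24 h pools were still chosen to be low in these lists, which bears on these counts. For the PBS 4 h pools left out the medians were 0.10, -0.27 and -0.04. PBS 4 h replicate 2 was the lowest of these, and it was the lowest of the 6 pools held high for 71 of the 150 members.

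LPS 4 h replicate 2 served as a common reference that no choice had used. Against it, the left-out PBS 24 h pools had medians of -0.59, -0.51 and -0.72, a mean of -0.61 ± 0.11 (SD, n = 3). The left-out PBS 4 h pools had -0.09, -0.39 and -0.18, a mean of -0.22 ± 0.15 (SD, n = 3), and the left-out LPS 24 h pools -0.16, 0.06 and 0.45, a mean of 0.11 ± 0.31 (SD, n = 3). The PBS 24 h pools lay below all others on this scale, with PBS 4 h replicate 2 the nearest to them. Passing genes averaged -0.07 ± 0.15, -0.03 ± 0.02 and -0.05 ± 0.12 (SD, n = 3 each) in the same order of groups. With TMM the means for the chosen genes were -0.50 ± 0.11, -0.18 ± 0.10 and 0.14 ± 0.20 (SD, n = 3 each). The lists overlap between left-out pools and share the reference pool, so the medians are not independent and no test was made. Between 2 groups of 3 pools, a two-sided exact permutation test could not go below p = 0.10.

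**Figure D4:**
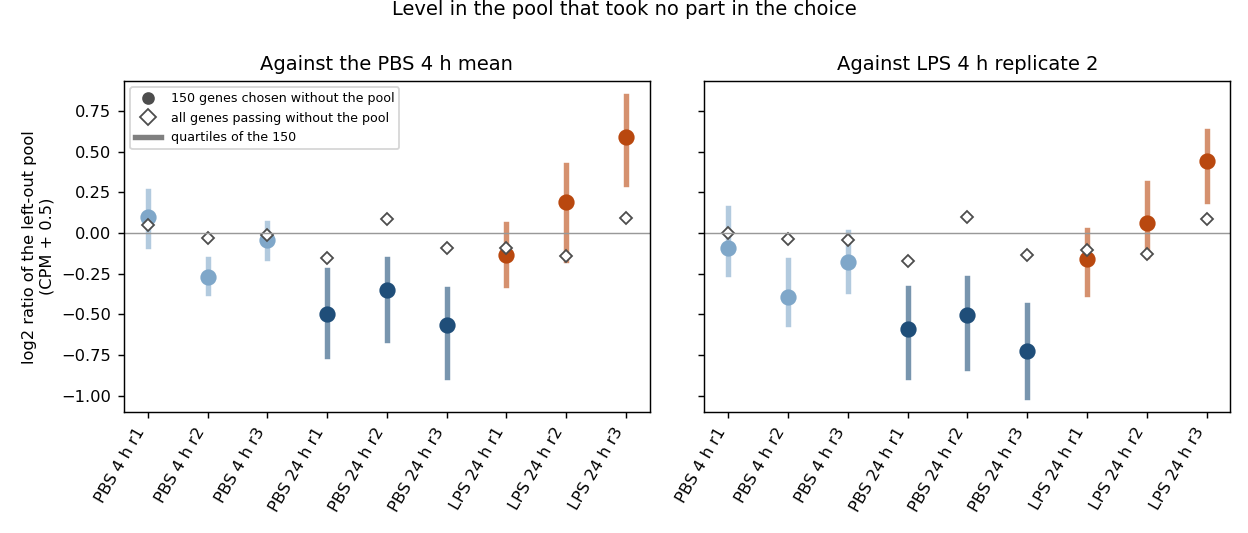
Median log2 ratio in a pool that took no part in choosing the 150 genes (filled circles, with quartiles as bars) and over all genes passing without that pool (open diamonds), against the PBS 4 h mean (left) and against LPS 4 h replicate 2 (right). The 3 PBS 24 h pools, at -0.72 to -0.51 in the right panel, lie below the 6 others, of which PBS 4 h replicate 2 is the lowest at -0.39.

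Which genes were chosen depended on single pools. Of the 150 genes, between 79 and 130 were chosen again without 1 of the 11 pools that the choice used, the fewest without PBS 24 h replicate 2, and 86 and 99 without PBS 4 h replicate 2 and PBS 24 h replicate 1. Whichever pool was left out, 32 members were chosen. They made up 26 of the 50 highest scores and 0 of the 50 lowest. With TMM in the same rule 65 of the 150 were chosen, 32 of them among the 50 highest scores. Both conditions were met by 23 members. TRINITY_DN1208_c0_g1 and TRINITY_DN24568_c0_g1 were chosen with TMM and in 9 and 10 of the 11 left-out forms. TRINITY_DN30306_c0_g1 and TRINITY_DN504_c2_g1 were not chosen with TMM, and were chosen in 7 and 4.

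The share of each isoform within its gene is a measure that the choice did not use, since it summed over isoforms. Several isoforms were assembled for 29 members (19.3%), against 22.3% of the passing genes, and the other 121 had a single one. No 2 members came from the same Trinity read cluster, so none is a fragment that the assembler linked to another. For LPS against PBS at 24 h, 0 of 29 members were called for isoform share (edgeR diffSpliceDGE, Simes), where 0.284% of 3872 genes were called. The lowest edgeR adjusted p among them was 0.798. From 4 h to 24 h in PBS it was also 0 of 29 (edgeR diffSpliceDGE, lowest adjusted p = 0.865), where 0.0775% of genes were called. At an unadjusted p under 0.05 there were 0 and 1 members, beside 6.28% and 5.29% of genes. An F test over isoforms called 0 of 29 in both contrasts, beside 1.24% and 0.181% of genes, with 2 and 1 members at an unadjusted p under 0.05, beside 10.4% and 6.9%. With limma on the ratio of the leading isoform to the others, 0 of 28 were called in both, beside 0.215% and 0% of 3721 genes, with 2 and 1 at an unadjusted p under 0.05, beside 9.51% and 4.73%. These tests do not show that shares were equal.

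For 13 of the 29 the leading isoform held over 90% of the gene's counts in PBS 4 h, and for 8 it held under 50%. The leading isoform was lower in every PBS 24 h pool than in all PBS 4 h and LPS 24 h pools for 19, and lower on the mean for 28. The choice made the summed counts lowest in PBS 24 h, and the leading isoform is part of that sum. These counts are therefore a description, and the share over all genes was not computed. In the gene of rank 12 the leading isoform held 55.1% ± 0.7 of the counts in PBS 4 h, 57.5% ± 1.1 in PBS 24 h, 56.1% ± 1.4 in LPS 4 h and 56.6% ± 0.8 in LPS 24 h (SD, n = 3 each). The share of the leading isoform in this gene thus stayed between 54.3% and 58.7% in all libraries, while the gene's mean was 3.39-fold apart between PBS 4 h and PBS 24 h. Not all members were so steady, and in the gene of rank 11 the share ran from 0% to 100%. Over the 29, the median leading share was 67.8% in PBS 4 h and 66.3% in PBS 24 h. It was 77.9% in LPS 4 h and 76.9% in LPS 24 h, and these medians were not tested. The lowest p by the ratio test was that of the gene of rank 132, where the leading isoform held 55.0% ± 12.5 in PBS 24 h and 86.0% ± 2.0 in LPS 24 h (SD, n = 3 each), which did not pass (limma adjusted p = 0.153). The split of reads among isoforms is an estimate, and that of isoforms with shared sequence is uncertain.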

How the data were processed

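RNA was sequenced from 12 spleen libraries, each a pool of 4 fish, made with a directional kit per the labels' protocols. The authors deposited estimated counts per assembled transcript as whole numbers, in a single table of 58975 transcripts. Trimmomatic 0.39, Bowtie2, FastQC, RSEM and DESeq2 appear in the submitters' processing notes. How the assembly was built and annotated, and the strand setting of counting, is not given in the sources used here.

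Counts were summed per Trinity gene and tested with edgeR 4.0.16 in R 4.3.3 (quasi-likelihood, robust, TMM, expression filter, 1 mean per group, all libraries, two-sided, Benjamini-Hochberg over all genes, called below 0.05). DESeq2 1.42.0 and limma-voom (limma 3.58.1) were alternatives. Isoform shares were tested with edgeR diffSpliceDGE, which on simulated counts called more unchanged genes than its threshold allows, so limma on the leading-isoform ratio was added after seeing this. The gene-level test, also run on simulated counts for time in PBS, called few unchanged genes. It recovered most changes of 4-fold or more and few of 2-fold or less. Fold changes on CPM used a pseudocount of 0.5. Pairs of libraries differed by a chi-square of at least 23.1 per degree of freedom, so none was counted as a repeat.

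The members and lists were chosen with earlier results of these data known. Identifiers were printed for the 2 highest scores and the 2 next members with the largest edgeR fold change of LPS against PBS at 24 h. Other members are given by rank, of which ranks 3, 4, 7, 11, 12, 22 and 132 were chosen after their values were seen. P-values rest on the spread between pools.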

Additional observations from a re-analysis of the deposited data

How the results depend on the processing

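Of the 150 members, 65 were chosen with TMM, 62 with median-ratio scaling, 70 with limits of 0.5 to 2, 51 with no limit on LPS 4 h and 84 with group means in the score, and 79 to 130 with a pool left out. The other forms kept 114 to 146. Genes lower in PBS 24 h numbered 354 to 883 and those higher 135 to 825 with a pool left out. Members called over time in PBS numbered 1 as planned, beside 0.0154% of all genes called lower. With no filter it was 2, beside 8 of 42217 genes, and with the 2 groups alone 5, beside 78 of 30886. For transcripts and with limma-voom it was 0, where no transcript or gene was called. DESeq2 called 27, beside 0.993%. With a pool left out it was 0 to 9, beside up to 0.438% of all genes. Those called for LPS at 24 h ranged from 1 to 113 with a pool left out, beside 0.084% to 5.18% of all genes called higher. Those for the interaction ranged from 0 to 28, beside up to 9.53% of all genes with a more positive call. DESeq2 called 23 for the interaction, beside 2.69%. Isoform calls stayed at 0 of the members tested in every setting run, beside up to 1.24% of all genes tested. With so few members tested, 0 calls lies near that share. What caused each shift was not tested.

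A replicate block left 0 members called over time in PBS and 0 for the interaction, where no gene was called. It left 36 for LPS at 24 h, beside 1.39% of all genes called higher. With the block, the call of TRINITY_DN1208_c0_g1 over time in PBS ended (edgeR adjusted p = 0.132). The deviations of pools that share a number had correlations from -0.549 to 0.166, against -0.462 to 0.528 where numbers differ. These ranges rest on few pools per group, too few to show what pools with the same number shared. The labels do not say what the number stands for, and whether such pools shared a batch was not tested. No named gene changed direction in any setting run. These genes were chosen with every PBS 24 h pool lowest, which bears on that result. Group means of the left-out medians moved by less than their SD with TMM, a pseudocount of 1 and group means in the score, but with TMM the PBS 24 h pools were at -0.37, -0.49 and -0.42, each a move above that SD. Depth limits the gene of rank 26, with 2 to 10 counts in PBS 24 h.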

Other observations

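Many genes with as wide a gap in PBS 24 h were not level under LPS. Of the 15925 genes at 5 CPM or more, 536 scored at least as high as the last member, and 150 of these met both limits. In LPS 24 h, 145 of the 536 exceeded 1.5 times their PBS 4 h level and 32 were under 0.67 times. In LPS 4 h replicates 1 and 3, 209 exceeded 1.5 times and 104 were under 0.67 times. These counts are from CPM by total counts, and the genes were selected on the same pools, so they carry no test.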
